A study of Mus musculus with 4 samples.

Results

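The miR-322, miR-503, miR-351, miR-542 and miR-450 hairpins form 1 cluster on the minus strand of mouse chromosome X. Its members and the rule below were set with earlier results of these data known. Rows of the deposited count table were chosen by position. All minus-strand rows of chromosome X that start inside a fixed window around the hairpins (mm10) were taken. This gave 14 of the 2110 rows, which hold both arms of 7 hairpins: miR-322, miR-503, miR-351, miR-542, miR-450b and the copies Mir450-2 and Mir450-1 of miR-450a. The rows are a list of 13 distinct mature miRNAs, because both miR-450a copies give the same miR-450a-5p. From the first to the last mature base, at 53048008 and 53054327, the cluster spans 6320 bases. In GENCODE, each row lies inside its own miRNA gene. None lies in the long noncoding genes of the same strand, Gm28730 at 53051194 to 53053159 and C430049B03Rik at 53055046 to 53057190.

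Small RNA was sequenced from extracellular vesicles, small membrane-bound packages shed by cells. They came from C2C12, an established mouse myoblast line, and were collected by differential centrifugation. The damaged group holds 2 libraries from cells given hydrogen peroxide, an oxidant, and the control group 2 libraries whose treatment label is WT. All 4 carry the genotype label WT and share the cell line and a medium with 10% fetal bovine serum. Cow miRNAs carried over from that serum would be counted as mouse ones where the sequences are the same. The sources used here give neither the peroxide dose nor the exposure time. The study asked how the vesicle cargo of hydrogen peroxide-damaged muscle cells differs from that of healthy ones. Whether the replicates were independent cultures is not stated, so p-values rest on the spread between these 4 libraries, which may be technical.

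A miRNA is cut from a hairpin, and either arm, 5p or 3p, can be loaded into an Argonaute protein. It then finds target mRNAs mainly through its seed, bases 2 to 8 from the 5′ end. miR-322, the mouse counterpart of human miR-424, and miR-503 are known from C2C12 cells as miRNAs that increase during differentiation and favour exit from the cell cycle by repressing Cdc25a, the phosphatase that activates cyclin-dependent kinases. miR-322-5p carries the seed of the miR-15 and miR-16 family, whose targets include cyclin and Bcl2 mRNAs, and miR-351-5p carries the seed of the miR-125 family.

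The mature sequences of the cluster are shown first because the seeds decide which other miRNAs of the vesicles can be compared with them. All 14 rows matched a RefSeq mature miRNA (GRCm38.p6, the same assembly as mm10) at both ends. Sequences run 5′ to 3′, and capitals mark the seed.
miR-322-5p: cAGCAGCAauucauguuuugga
miR-503-5p: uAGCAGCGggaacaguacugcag
miR-351-5p: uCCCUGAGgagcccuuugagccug
miR-542-5p: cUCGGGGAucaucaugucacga
miR-450a-5p: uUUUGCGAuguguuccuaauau
miR-450b-5p: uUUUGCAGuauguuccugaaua
miR-322-3p: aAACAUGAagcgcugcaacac
miR-503-3p: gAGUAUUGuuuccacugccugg
miR-351-3p: gGUCAAGAggcgccugggaac
miR-542-3p: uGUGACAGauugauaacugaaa
miR-450b-3p: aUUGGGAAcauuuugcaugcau
miR-450a-1-3p: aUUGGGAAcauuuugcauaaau
miR-450a-2-3p: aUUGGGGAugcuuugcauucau
miR-322-5p and miR-503-5p share bases 2 to 7. miR-450a-5p and miR-450b-5p share only bases 2 to 6 of the seed, whereas miR-450a-1-3p and miR-450b-3p are the same from base 2 to base 18 and differ at 2 of 22 positions. The GC content of the mature sequences ran from 27.3% for miR-450a-1-3p to 66.7% for miR-351-3p, so the cluster covers AU-rich and GC-rich miRNAs alike. The miR-322-5p row lies at chrX:53054306-53054327, miR-503-5p at chrX:53054027-53054049, miR-351-5p at chrX:53053315-53053338 and miR-542-5p at chrX:53049453-53049474. The miR-450a-5p rows lie at chrX:53048339-53048360 (Mir450-2) and chrX:53048206-53048227 (Mir450-1), and miR-450b-3p at chrX:53048008-53048029. No row of the cluster shares bases with an entry on the opposite strand, so the unstranded counting does not mix it with another miRNA.

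Libraries held 4577668 and 7638663 counts in WT and 6901394 and 7350345 in damaged. miR-206-3p, made mainly in skeletal muscle, was the most abundant row. The 7 muscle marker rows summed to 298735 and 335159 CPM (counts per 1 000 000, scaled by edgeR's TMM factors) in WT and 357005 and 372103 in damaged, a sum made up mostly of miR-206-3p (log2 fold change 0.18, edgeR adjusted p = 0.334). Of the 5 tested muscle marker rows, 3 were called higher, against 4.1% of all tested rows. All 3 were of the miR-133 family, which is made in skeletal and heart muscle. Their log2 fold changes were 1.14 (miR-133a-1-3p), 1.12 (miR-133a-2-3p) and 1.22 (miR-133b-3p), with edgeR adjusted p of 0.00914, 0.00914 and 0.0107. Both miR-133a rows have the same mature sequence, so they are not separate measurements. Rows for miR-486-5p and 1 copy of miR-1a-3p were at 0, and both share bases with an opposite-strand entry. The 7 blood cell and serum marker rows summed to 1745 and 1526 CPM in WT and 1557 and 1450 in damaged, most of it miR-451a, with miR-142a-3p and miR-122-5p at 0. Of the scarce rows in that list, miR-144-3p had 0 and 0 counts in WT and 12 and 14 in damaged, and miR-142a-5p had 1 and 0 in WT and 21 and 22 in damaged. Neither was called (edgeR adjusted p = 0.0807 and 0.0903). The 5 epithelial rows summed to 0.886 and 3.15 CPM in WT and 6.71 and 2.93 in damaged, the 8 neural rows to at most 0.221 CPM with 7 at 0, and both endothelial rows were at 0. Of the 13 marker rows of sources other than muscle at 0, 9 share bases with an opposite-strand entry. With unstranded counting, a 0 in such a row does not show that the miRNA was absent. Rows that may be pieces of other RNAs took 0.207% and 0.312% of counts in WT and 0.626% and 0.669% in damaged, and the part of these rows and of the marker rows in the results was not tested.

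The cluster took a smaller share of the counts in both damaged libraries than in both WT libraries. Its 14 rows held 0.505% of WT replicate 1 (exact Clopper-Pearson 95% interval 0.499 to 0.512). WT replicate 2 gave 0.480% (0.475 to 0.485), damaged replicate 1 gave 0.229% (0.225 to 0.232), and damaged replicate 2 gave 0.218% (0.215 to 0.221). The groups did not overlap. The WT mean of 0.493% ± 0.0179 was 2.21 times the damaged mean of 0.223% ± 0.00772 (SD, n = 2; exact two-sided permutation p = 0.333, the smallest that 2 libraries against 2 allow). Intervals cover counting error only. As shares are relative to all miRNA reads, a fall of the cluster and a rise of other miRNAs cannot be told apart. Nor can fewer vesicles that carry the cluster and fewer copies in each vesicle. Among counts from chromosome X the cluster held a mean of 14.95% in WT and 8.03% in damaged.

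edgeR's quasi-likelihood test over 536 rows called 4 of the 13 tested cluster rows lower in damaged vesicles, at an adjusted p under 0.05. These were both rows of miR-450a-5p, the row of miR-351-5p and that of miR-322-5p, together 3 distinct sequences. No cluster row was called higher, by edgeR or by DESeq2, and none was higher at an unadjusted p under 0.05. Over all tested rows, 5.41% were called lower, 4.1% higher and 9.51% in either direction. The median log2 fold change (damaged minus WT) was -1.05 over the cluster's tested rows and 0.02 over all tested rows, and 11 of the 13 rows lay below 0, against 49.1% of all tested rows. In 9 of the 13 rows both damaged libraries lay below both WT libraries, against 30.8% of all tested rows. These 9 stand for 8 sequences and include all 7 tested 5p rows and 2 of 6 tested 3p rows, miR-503-3p and miR-450b-3p. At an unadjusted p under 0.05 there were 9 cluster rows among 165 rows. miR-450a-2-3p, with at most 9 counts in a library, did not pass the filter on low counts and was not tested.

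**Figure D1:**
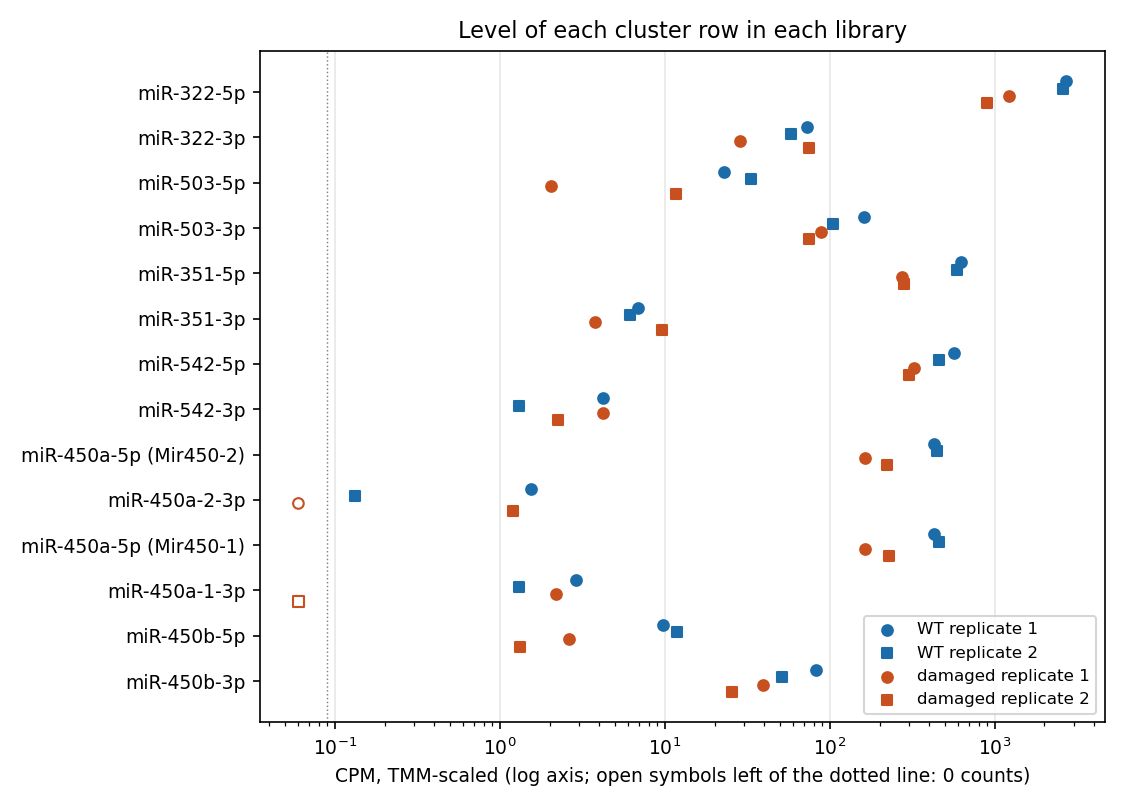
Level of each of the 14 cluster rows in CPM on a log axis, 1 symbol per library (blue for WT, orange for damaged; circles for replicate 1, squares for replicate 2), in genomic order from miR-322 down. miR-322-5p stands at 2714 and 2592 CPM in WT and at 1211 and 897 in damaged; the 2 open symbols mark rows with 0 counts.

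miR-322-5p was the most abundant member, rank 45 of the table by mean CPM, and held at least 42.1% of the cluster's counts in each library. It stood at 2714 CPM in WT replicate 1, 2592 in WT replicate 2, 1211 in damaged replicate 1 and 897 in damaged replicate 2. Both damaged libraries were far below both WT libraries, and the gap between the damaged libraries was wider than that between the WT ones. The log2 fold change was -1.33 ± 0.18 (SE), 2.52-fold lower in damaged (edgeR adjusted p = 0.0180). The call held in all 12 other settings run on 4 libraries (adjusted p up to 0.0388, with a correction for GC content). On 3 libraries edgeR called it without damaged replicate 2 (adjusted p = 0.0252) but not without either WT library (0.155 in both cases) or without damaged replicate 1 (0.0985). DESeq2 called it on every set of 3 libraries.

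miR-351-5p, the seed relative of miR-125, is known in muscle progenitors as a miRNA that represses E2f3, a cell-cycle transcription factor. It stood at 622 and 593 CPM in WT and at 273 and 281 CPM in damaged, for replicates 1 and 2. The replicates of each group lay close together and the groups did not overlap. The log2 fold change was -1.13 ± 0.13 (SE), 2.20-fold lower (edgeR adjusted p = 0.0136). By p-value it ranked 10 among all tested rows and first in the cluster, and it was called in all 12 other settings on 4 libraries (adjusted p up to 0.0196). On 3 libraries edgeR called it only without damaged replicate 2 (adjusted p = 0.0373, against 0.0985 to 0.134 without each other library), and DESeq2 called it on every set of 3.

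miR-450a-5p comes from 2 hairpins with the same mature sequence. Its Mir450-2 row stood at 430 and 444 CPM in WT and at 163 and 222 CPM in damaged, and its Mir450-1 row at 426 and 458 CPM and at 164 and 228 CPM. Of the reads of the pair, the smaller row held 49.2% to 49.8% in each library, so they cannot be assigned to a hairpin and count as 1 measurement. Their log2 fold changes were -1.19 ± 0.20 and -1.17 ± 0.20 (SE; edgeR adjusted p = 0.0305 for both). A correction for GC content, which is 31.8% for this sequence, ended both calls (log2 fold changes -0.97 and -0.96, edgeR adjusted p = 0.0743 and 0.0773). On 3 libraries edgeR called the pair only without damaged replicate 2 (adjusted p = 0.0260), and DESeq2 called both rows on every set of 3.

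miR-542-5p was the other abundant member, without a call by the main test. It stood at 564 and 460 CPM in WT and at 323 and 302 CPM in damaged. The groups did not overlap, but the log2 fold change of -0.71 ± 0.16 (SE) missed the threshold (edgeR adjusted p = 0.0531). It was called in 9 of 12 other settings on 4 libraries, both with a replicate block among them, with adjusted p from 0.00117 to 0.0701. On 3 libraries its edgeR log2 fold change ran from -0.83 to -0.64. Its partner miR-542-3p, known for repressing Birc5, the mRNA of the survival protein survivin, was close to the limit of detection at 4.21 and 1.31 CPM in WT and 4.23 and 2.26 in damaged (edgeR adjusted p = 0.905).

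From the miR-503 hairpin, the arm that shares bases 2 to 7 with miR-322-5p was the minor one. miR-503-5p stood at 22.8 and 33.5 CPM in WT and at 2.04 and 11.7 CPM in damaged, from 103, 255, 14 and 88 counts. Both damaged libraries were below both WT libraries, and they lay far apart from each other. miR-503-5p was called in 4 of 12 other settings on 4 libraries. These include both with a block for same-numbered replicates, although such replicates did not pair. At -2.03 ± 0.78 (SE), its log2 fold change was not called by the main test (edgeR adjusted p = 0.153). Without damaged replicate 2 it was -3.78 (edgeR adjusted p = 0.0203), and without damaged replicate 1 it was -1.31 (adjusted p = 0.178). miR-503-3p stood at 162 and 105 CPM in WT and at 87.9 and 74.5 CPM in damaged (log2 fold change -0.72 ± 0.26 SE, edgeR adjusted p = 0.140). It was called in 2 of 12 other settings on 4 libraries, without a filter on low counts and with the replicate block.

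Both miR-450b arms were lower in both damaged libraries, and neither was called by the main test. In other settings on 4 libraries, miR-450b-5p was called in 4 of 11 and miR-450b-3p in 3 of 12. In both cases the replicate block was among them. miR-450b-5p had 44 and 90 counts in WT and 18 and 10 in damaged, or 9.74 and 11.8 CPM against 2.63 and 1.33. Its log2 fold change of -2.44 ± 0.57 (SE) was the lowest of the cluster and missed the threshold (edgeR adjusted p = 0.0531). miR-450b-3p stood at 82.6 and 51.6 CPM in WT and at 39.2 and 25.5 in damaged (log2 fold change -1.05 ± 0.35 SE, edgeR adjusted p = 0.107). Because miR-450a-1-3p differs from it at only 2 positions, the counting may have swapped reads between them.

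The remaining 3p arms gave no call and overlapping groups. miR-322-3p stood at 72.6 and 57.9 CPM in WT and at 28.4 and 74.3 in damaged, so that damaged replicate 2 was above both WT libraries and damaged replicate 1 below them. miR-351-3p showed the same order at a lower level, with 6.86 and 6.17 CPM in WT and 3.79 and 9.57 in damaged. Their log2 fold changes were -0.34 ± 0.47 and 0.04 ± 0.60 (SE; edgeR adjusted p = 0.699 and 0.981). miR-450a-1-3p had 13, 10, 15 and 0 counts and miR-450a-2-3p 7, 1, 0 and 9 counts, in the order WT replicates 1 and 2, damaged replicates 1 and 2. For such rows a difference was not detectable at this depth, where a count of 0 allows up to 3 counts, or 0.393 to 0.655 CPM of the library total.

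**Figure D2:**
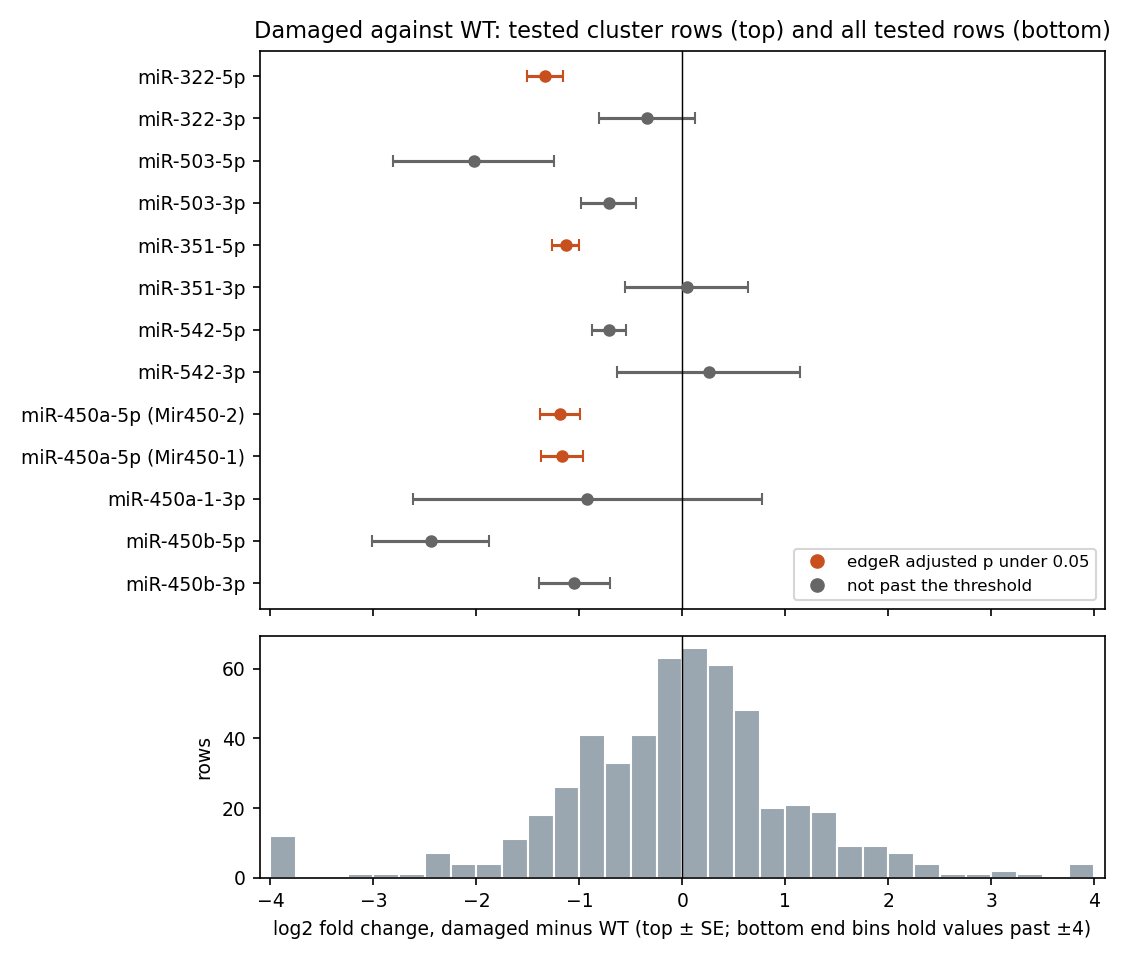
Top, log2 fold change (damaged minus WT, ± SE) of the 13 tested cluster rows, orange where the edgeR adjusted p is under 0.05; bottom, the same values for all 536 tested rows as a histogram. The 4 called rows lie between -1.33 and -1.13, and 11 of the 13 rows lie below 0.

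Arm usage is shown with 3 of the hairpins, in which capitals mark the annotated mature arms, the 5p arm first. The 5p arm dominated in Mir322 and Mir542, and the 3p arm in Mir503.
Mir322: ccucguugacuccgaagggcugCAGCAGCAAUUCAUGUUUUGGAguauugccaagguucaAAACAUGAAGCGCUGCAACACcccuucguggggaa
Mir503: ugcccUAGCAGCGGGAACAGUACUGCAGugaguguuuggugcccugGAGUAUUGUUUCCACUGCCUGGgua
Mir542: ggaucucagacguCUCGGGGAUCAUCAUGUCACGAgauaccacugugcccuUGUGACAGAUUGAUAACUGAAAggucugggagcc
The 5p arm held most reads of miR-322, miR-351, miR-542 and miR-450a, and the 3p arm held most reads of miR-503 and miR-450b, in every library. miR-322-3p made up 2.61% (exact 95% interval 2.33 to 2.90) and 2.19% (1.99 to 2.40) of the hairpin's counts in the WT libraries. Its share was 2.30% (1.99 to 2.64) for damaged replicate 1 but 7.65% (7.05 to 8.29) for damaged replicate 2. Damaged replicate 2 alone stood apart from the other 3 libraries. miR-351-3p showed the same, with 1.09%, 1.03% and 1.37% in those 3 libraries and 3.30% in damaged replicate 2 (2.59 to 4.13). Both shares differed more between the damaged replicates than between the group means.

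miR-503-5p made up 12.3% and 24.1% of the hairpin's counts in WT and 2.27% and 13.6% in damaged, so the groups overlapped. miR-450b-5p made up 10.6% (7.77 to 13.9) and 18.6% (15.3 to 22.4) in WT and 6.27% (3.76 to 9.73) and 4.95% (2.40 to 8.92) in damaged, without overlap of the groups but with overlapping intervals for WT replicate 1 and both damaged libraries. The share of miR-542-3p was 0.285% to 1.29%. Counted as log2 ratios within a library, with a pseudocount of 0.5 counts, the 6 arm ratios had exact two-sided permutation p of 0.333 or 0.667. With 2 libraries against 2, none of the 15 ratios computed could pass (adjusted p of at least 0.714).

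**Figure D3:**
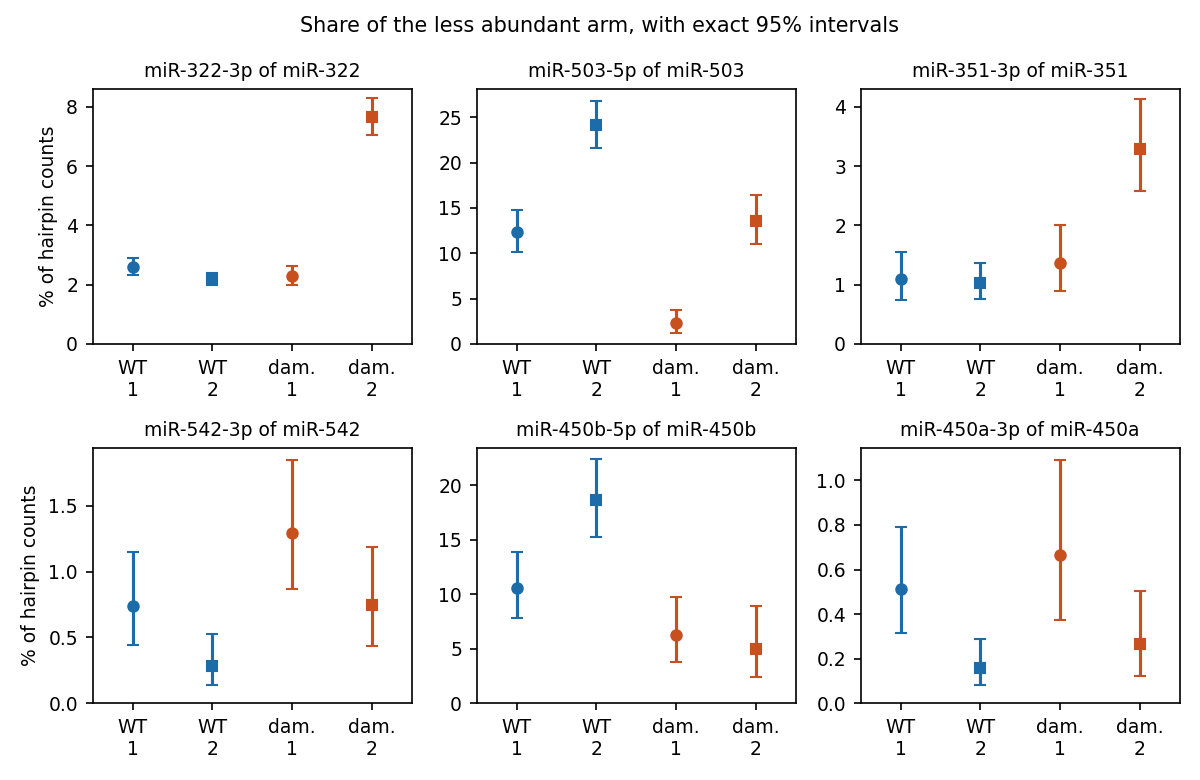
Share of each hairpin's counts held by its less abundant arm in each library (percent, exact 95% intervals; blue WT, orange damaged). miR-322-3p and miR-351-3p are high in damaged replicate 2 only, at 7.65% and 3.30%.

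Within the cluster, the shares of its members give its make-up apart from its total. miR-322-5p held 53.0% and 53.8% of the cluster's counts in WT and 52.6% and 42.1% in damaged, and damaged replicate 2 was the low library. miR-351-5p held between 11.8% and 13.2% in all 4 libraries, and both miR-450a-5p copies together held 16.7% and 18.7% in WT and 14.2% and 21.1% in damaged. miR-542-5p took 10.3% ± 1.04 in WT and 14.1% ± 0.112 in damaged (SD, n = 2), without overlap. Its log2 ratio to miR-322-5p was higher by 0.64 in damaged, without overlap of the groups (-2.27 and -2.49 in WT, -1.91 and -1.57 in damaged; exact two-sided permutation p = 0.333, adjusted p = 0.714). The ratio of miR-351-5p to miR-322-5p was -2.13 in both WT libraries and -2.15 and -1.68 in damaged, which overlapped.

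Seed relatives outside the cluster differed in direction. Of 10 tested rows that share bases 2 to 7 with a tested cluster row, edgeR called 2 lower (miR-15b-5p and miR-497a-5p) and 3 higher (miR-125a-5p and both copies of miR-125b-5p), against 5.41% lower and 4.1% higher over all tested rows. No call was made for the other 5. The copies of miR-125b-5p have the same mature sequence, as do those of miR-16-5p, so the rows of a pair are not separate measurements. Over all 10 relatives, called in either direction or not, the median was -0.37 on the log2 scale, beside 0.02 over all tested rows. These 5 relatives with a full seed match are shown for comparison, again with the seed in capitals.
miR-15b-5p: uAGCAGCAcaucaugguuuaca
miR-16-5p: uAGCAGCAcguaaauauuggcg
miR-497a-5p: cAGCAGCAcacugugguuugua
miR-125a-5p: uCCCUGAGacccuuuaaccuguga
miR-125b-5p: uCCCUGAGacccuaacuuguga

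Of the 6 tested rows of the miR-15, miR-16, miR-195 and miR-497 family, 2 were called lower, against 5.41% of all tested rows. The 6 rows include both copies of miR-16-5p, which are not separate measurements. miR-15b-5p stood at 1036 and 1085 CPM in WT and 368 and 372 in damaged (log2 fold change -1.52 ± 0.12 SE, edgeR adjusted p = 0.00914). miR-497a-5p stood at 68.9 and 58.7 CPM in WT and 30.2 and 22.2 in damaged (edgeR adjusted p = 0.0411, 0.0507 with the GC correction, and 0.0985 to 0.217 on 3 libraries). miR-16-5p, summed over both copies, stood at 2827 and 2738 CPM in WT and 1826 and 2457 in damaged, and its rows had log2 fold changes of -0.37 and -0.39 without a call (edgeR adjusted p = 0.197 and 0.238). miR-15a-5p and miR-195a-5p gave no call either (log2 fold changes -0.40 and -0.38). miR-218-1-3p, which shares bases 2 to 7 with miR-322-3p, had 0 and 20 counts in WT and 0 and 19 in damaged. In all, the 7 rows with the seed AGCAGCA summed to 7139 and 7011 CPM in WT and 3849 and 4118 in damaged, which did not overlap (exact two-sided permutation p = 0.333). miR-322-5p made up 38.0% and 37.0% of that sum in WT and 31.5% and 21.8% in damaged.

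The 3 tested relatives of miR-351-5p by seed were all called higher, and in each both damaged libraries lay above both WT libraries, against 29.1% of all tested rows. Both miR-125b-5p rows among them have the same mature sequence, so they are not separate measurements. miR-125a-5p stood at 765 and 952 CPM in WT and 1464 and 1867 in damaged (log2 fold change 0.96 ± 0.18 SE, edgeR adjusted p = 0.0360). miR-125b is known to repress Igf2, a growth factor of muscle differentiation. Both miR-125b-5p copies together stood at 1538 and 1768 CPM in WT and 2732 and 2893 in damaged, with log2 fold changes of 0.75 and 0.78 per copy (edgeR adjusted p = 0.0305 for each). On 3 libraries edgeR called none of these 3 rows (lowest adjusted p = 0.0951). DESeq2 called them on every set of 3 libraries, except the Mir125b-2 row of miR-125b-5p without WT replicate 1 (adjusted p = 0.0591). The 4 rows with the seed CCCUGAG summed to 2925 and 3314 CPM in WT and 4468 and 5041 in damaged. miR-351-5p made up 21.3% and 17.9% of that sum in WT and 6.10% and 5.57% in damaged. The log2 ratio of miR-351-5p to the summed miR-125 rows was -1.89 and -2.20 in WT and -3.94 and -4.08 in damaged, a difference of -1.97 without overlap of the groups (exact two-sided permutation p = 0.333, adjusted p = 0.714).

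**Figure D4:**
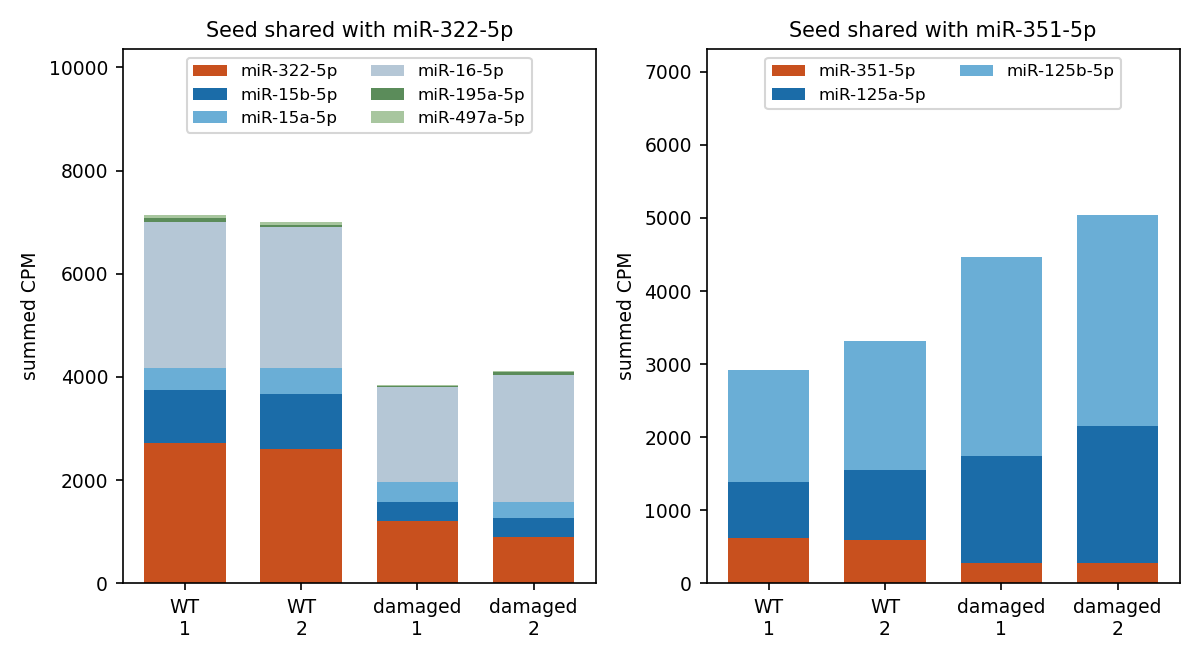
Summed CPM in each library of the rows that share the seed of miR-322-5p (left) and of miR-351-5p (right), stacked by mature miRNA; the orange base of each bar is the cluster member. The left sums are lower in damaged (3849 and 4118 CPM against 7139 and 7011) and the right sums higher (4468 and 5041 against 2925 and 3314), while both orange parts are smaller in damaged.

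Other miRNAs of chromosome X were tested in the same fit. Of 67 tested rows of chromosome X outside the cluster, edgeR called none lower and 1 higher, against 5.41% lower and 4.1% higher over all tested rows, and their median log2 fold change was 0.04. At an unadjusted p under 0.05, 10 were lower and 11 higher, beside 165 of all 536 tested rows in either direction. DESeq2 called 3 lower and 4 higher, beside 106 of all 536 rows, 62 of them lower. The called row, named after its values were seen, was miR-2137 (log2 fold change 1.83, edgeR adjusted p = 0.00914), which is among the rows that may be pieces of other RNAs. The 3 most abundant rows there were let-7f-5p (Mirlet7f-2), miR-532-5p and miR-98-5p, with log2 fold changes of -0.16, -0.45 and -0.52 and edgeR adjusted p of 0.425, 0.0531 and 0.0903. A test of the difference between the cluster and these rows was not made.

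The rows most like miR-322-5p across the 4 libraries lay on other chromosomes. By Euclidean distance of centred log2 CPM, the 5 nearest of distinct mature ID outside the cluster were miR-497a-5p (0.13), miR-669b-5p (0.15), miR-96-5p (0.21), miR-669m-2-5p (0.28) and miR-25-3p (0.32). Within the cluster the nearest was miR-351-5p at 0.40, followed by miR-450b-3p at 0.55, and the farthest was miR-503-5p at 2.28. With 4 libraries this is a description of shape only.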

How the data were processed

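Vesicle small RNA of 4 C2C12 libraries, 2 per group, was analysed from 1 table of whole-number counts per mature miRNA row. The counts were deposited as made by featureCounts 2.0.1, per the file headers, with no strand option in the recorded command. Reads were aligned to mm10 with BWA and checked with FastQC, per the submitters' processing notes. Of the 2110 rows, 1734 were named by position from RefSeq mature miRNAs, 6 through another copy of the same ID and 360 from a GENCODE hairpin. The cluster's rows, its seed relatives (bases 2 to 7 shared), the most abundant other rows of chromosome X and the 5 rows nearest to miR-322-5p were named by rule. Members, lists and rules were chosen with earlier results of these data known.

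Rows were filtered with filterByExpr (minimum count 10), scaled with TMM and tested with edgeR 4.0.16 (quasi-likelihood, damaged against WT, Benjamini-Hochberg adjustment over 536 rows, R 4.3.3). The SE of an edgeR log2 fold change was derived from its test. It is the absolute log2 fold change divided by the square root of the quasi-likelihood F statistic. Single values had exact two-sided permutation tests. Library totals of 4577668 to 7638663 set the counting precision. Alternatives were other scalings and filters, DESeq2 1.42.0, limma 3.58.1 (voom), robust dispersion, summed identical copies, a GC correction, a replicate block and leaving out each library. No samples were left out.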

Additional observations from a re-analysis of the deposited data

How the results depend on the processing

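Against 51 calls among all tested rows and 4 in the cluster, the calls numbered 77 and 6 with upper-quartile scaling, 131 and 9 without a filter on low counts, 91 and 5 with a stricter filter, 106 and 8 with DESeq2, 79 and 5 with limma-voom, and 42 and 2 with the GC correction. Leaving out 1 library gave 0 to 30 calls among all rows and 0 to 5 in the cluster. edgeR made none without either WT library or without damaged replicate 1, where 103, 124 and 144 rows, 6, 7 and 8 of them in the cluster, had an unadjusted p under 0.05. DESeq2 on 3 libraries, chosen after seeing the data, called 53, 67, 73 and 65 rows without WT replicates 1 and 2 and damaged replicates 1 and 2, and 4, 5, 5 and 6 in the cluster. Same-numbered replicates did not pair (correlation of deviations 0.003 over 536 rows), and the replicate block gave 127 calls, 9 in the cluster, or 77 and 6 with the GC correction. The cluster's share differed by -0.365 percentage points, against -0.269, when the most abundant row was left out of the totals. The cluster rows that turned direction were scarce or variable 3p arms, and the cause was not tested. miR-351-3p was at -0.014 with upper-quartile scaling, -0.063 with limma-voom, -0.084 with the replicate block and -0.086 with block and GC correction. Leaving out 1 library moved it from -0.79 to 0.53, miR-322-3p from -1.21 to 0.17, miR-542-3p from -0.35 to 1.22 and miR-450a-1-3p from -6.76 to 0.061. DESeq2 gave -0.039 and -0.77 for miR-351-3p without WT replicate 2 and damaged replicate 2, 0.20 for miR-322-3p without damaged replicate 1, -0.38 and -0.25 for miR-542-3p without WT replicate 2 and damaged replicate 1, and 0.088 for miR-450a-1-3p without damaged replicate 2. Outside the cluster, leaving out 1 library moved miR-195a-5p from -1.27 to 0.15 (0.18 by DESeq2 without damaged replicate 1) and miR-218-1-3p from -6.11 to 6.03. let-7f-5p (Mirlet7f-2) was at 0.050 with the GC correction and 0.038 with block and GC correction.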
